A study of Mus musculus with 9 samples.

Results

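The circadian clock genes were followed in RNA sequencing of mouse kidney. The 10 genes Arntl, Clock, Npas2, Per1, Per2, Per3, Cry1, Cry2, Nr1d1 and Dbp were found by their gene names among the 52636 genes of the deposited tables, and all 10 passed the filter on low counts that kept 17114 genes for testing. The 9 libraries came from wild-type mice (WT) and from mice with knock-in alleles of Nfkb1, which encodes p105 and its DNA-binding product p50, a subunit of NF-kB, and each of the 3 genotypes had 3 libraries. Both alleles change the codon of cysteine 59 and carry a PGK-neo selection cassette in a neighbouring intron, and they were made in ES cells derived from C57BL/6NTac. C59A is labelled as the activated and C59S as the inactivated form of NF-kB, while the account of DNA binding in the labels gives the opposite order, so the alleles are named here by their amino acid. The labels state a light/dark cycle but give no hour of collection, age, sex or litter, do not say whether 1 or both copies of Nfkb1 carried the allele, and do not say that the replicates were separate animals. The p-values therefore measure the spread between these libraries, which may be technical. The hour at which each kidney was taken and its genotype cannot be told apart where the hours differed between groups.

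The circadian clock is a loop of transcription that takes about a day. The proteins of Arntl (BMAL1) and Clock, or of Npas2 in place of Clock, bind E-boxes and switch on the Period and Cryptochrome genes, whose proteins then block them. Nr1d1 (REV-ERB alpha) is switched on by the same pair and represses Arntl through ROR elements, and Dbp is an output factor that acts on D-boxes. In most tissues Dbp and Nr1d1 are high when Arntl is low, and in the kidney the clock is known for daily rhythms of salt and water handling.

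The sequences before the start sites of Per3, Per1 and Nr1d1, the clock genes with the smallest p-values below, are shown to place these elements. A short stretch of Arntl is added for its ROR core and not for its p-values. RefSeq windows on GRCm38.p6 (250 bases before to 50 after a start site) matched 9 of the 10 genes in 13 windows, and Per2 had no window. The letters searched on both strands were CACGTG for the E-box, CACGTT for the E-prime box, TTATGTAA or TTACGTAA for the D-box, and TAGGTCA or TGGGTCA for the core of the ROR element. Among all 32851 windows of 300 bases, 7.15% held the E-box letters, 4.68% the E-prime box, 1.06% a D-box and 6.45% an ROR core. The 250 bases upstream of each start site follow, read 5′ to 3′ on the gene's strand, with the matched letters in capitals. They are chr4:151044666-151044915 (minus strand) for Per3, chr11:69098699-69098948 (plus strand) for Per1 and chr11:98775378-98775627 (minus strand) for Nr1d1, and the Arntl line is the ROR core with its neighbours at chr7:113207530-113207558 (plus strand), inside the first exon and its untranslated part.
Per3: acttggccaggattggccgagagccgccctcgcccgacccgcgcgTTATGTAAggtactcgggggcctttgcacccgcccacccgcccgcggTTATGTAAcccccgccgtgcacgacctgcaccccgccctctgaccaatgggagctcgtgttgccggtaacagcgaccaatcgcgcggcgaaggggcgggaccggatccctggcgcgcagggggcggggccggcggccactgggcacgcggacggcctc
Per1: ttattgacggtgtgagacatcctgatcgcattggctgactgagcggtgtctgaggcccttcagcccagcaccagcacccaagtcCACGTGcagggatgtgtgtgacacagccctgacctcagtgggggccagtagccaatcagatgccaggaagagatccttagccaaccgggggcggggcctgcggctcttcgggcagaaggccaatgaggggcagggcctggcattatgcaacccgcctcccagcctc
Nr1d1: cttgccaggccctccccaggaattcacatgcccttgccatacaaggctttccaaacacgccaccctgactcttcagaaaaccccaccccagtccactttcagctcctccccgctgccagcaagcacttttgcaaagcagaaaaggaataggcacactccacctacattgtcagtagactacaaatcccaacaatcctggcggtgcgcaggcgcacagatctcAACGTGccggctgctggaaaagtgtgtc
Arntl: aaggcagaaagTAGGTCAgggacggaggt
Per3 held 2 copies of the D-box letters, starting at -205 and -158 relative to the start site. Per1 held the E-box at -166, and Nr1d1 held the E-prime box at -28 on the opposite strand. Of the genes not printed, Cry1 held an E-box at -60 and an E-prime box at -79, and Cry2 an E-prime box at -166. The ROR core of Arntl lay at +31. Each position is counted from the start site of the window that held the letters. A further window of Per1 (chr11:69099902-69100201) and of Arntl (chr7:113207215-113207514) held none. The printed stretches of Per1 and Arntl lie inside the gene spans given below, so other start sites of these genes lie elsewhere. No such letters were found in the windows of Clock, Npas2 and Dbp. These matches describe letters in short windows and not bound sites.

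Total counts per library ran from 16367403 to 25787659, so that 3 counts equalled 0.112 to 0.202 CPM (counts per 1e+06 of the library total after scaling with TMM factors). Mitochondrial genes took 16.4% to 19.6% of the counts in WT, 20.8% to 28.8% in C59A and 20.5% to 40.6% in C59S, with C59S replicate 3 at the top. The 6 markers of proximal tubule, the main cell type of kidney, were present in every library, at a summed level of 8997 to 9628 CPM in WT, 5548 to 7938 CPM in C59A and 5186 to 6819 CPM in C59S. In this sum the WT libraries lay wholly above those of both alleles, as they did for Per1, but the 6 markers did not move together. In C59A against WT, 4 had negative and 2 positive fold changes. Slc5a2 was called lower at -1.44 and Slc22a6 higher at 0.91 (log2, edgeR adjusted p = 0.00412 and 0.0312). In C59S against WT, 5 were negative and 1 positive, and none was called. The part of this cell type in the values below was not tested. The adrenal cortex markers summed to 87.3 CPM in C59S replicate 2 and to 3.10 to 6.14 CPM elsewhere. Cyp11b1, which makes corticosterone in the adrenal cortex, had 242 counts in C59S replicate 2 and 0 in the other 8 libraries. The 4 adipocyte markers summed to 27.1 to 63.2 CPM in WT, 155 to 229 CPM in C59A and 151 to 1148 CPM in C59S, and 2 of them were at 0 in at least 1 library. The Y-linked Kdm5d was at 17.7 to 24.7 CPM in C59A and at 0 to 0.0674 CPM in the other libraries. Xist, a transcript of the X chromosome in females, stood at -11.4 (log2) in C59A against WT (edgeR adjusted p = 4.0e-08). It stood at -11.1 in C59A against C59S (5.08e-08) and at -0.32 in C59S against WT. By these transcripts the C59A libraries were male and the others female. Every comparison with C59A below is therefore also one of male with female kidney, and allele and sex cannot be told apart. In whole kidney, fewer cells of a type and less RNA per cell cannot be told apart either.

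Per transcript length, the outputs and the Period genes were the abundant part of the clock and its activators the scarce part. In WT the mean FPKM (the deposited value per transcript length and library size) was 41.9 ± 12.9 for Dbp, 32.5 ± 5.82 for Nr1d1, 22.8 ± 2.46 for Per1, 21.5 ± 7.85 for Per2 and 9.59 ± 1.64 for Per3 (SD, n = 3). Cry2 followed at 4.33 ± 0.628, Cry1 at 1.94 ± 0.960, Clock at 1.78 ± 0.143, Arntl at 0.230 ± 0.107 and Npas2 at 0.150 ± 0.0777 FPKM. The median tested gene had a mean of 3.27 FPKM over the 9 libraries. The WT libraries overlapped between the neighbours Dbp and Nr1d1, Per1 and Per2, Cry1 and Clock, and Arntl and Npas2, so these pairs are not ordered. In C59A the mean of Nr1d1 (28.2 ± 1.10 FPKM) stood above that of Dbp (26.6 ± 12.4 FPKM), and in C59S Dbp (55.3 ± 8.58 FPKM) stood above Nr1d1 (47.1 ± 11.8 FPKM), with overlapping libraries in both genotypes. Clock stood well above its partner Arntl in all 3 genotypes, at 2.08 ± 0.308 against 0.376 ± 0.261 FPKM in C59A and 1.73 ± 0.205 against 0.225 ± 0.0989 FPKM in C59S.

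**Figure D1:**
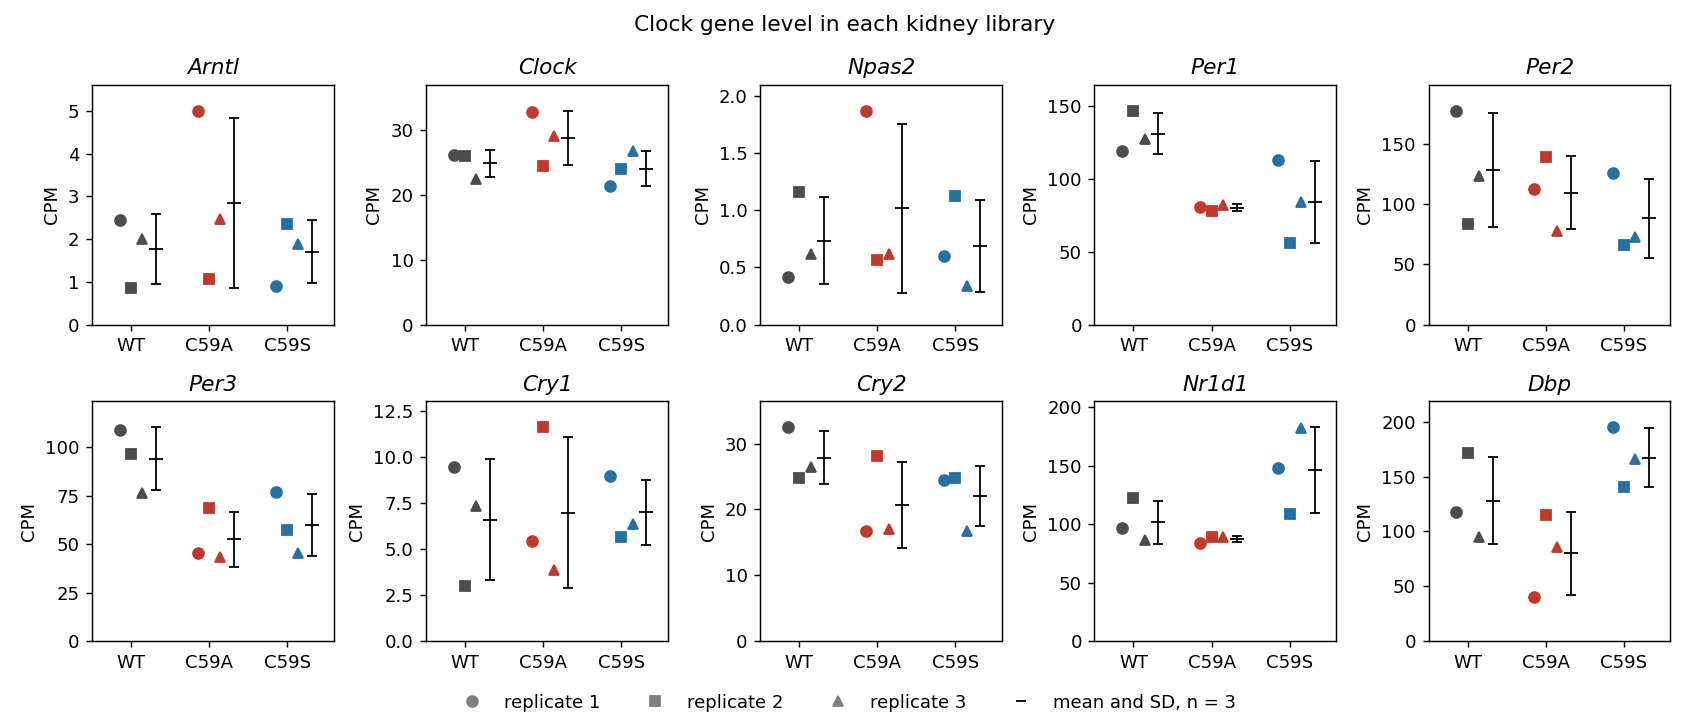
CPM of each of the 10 clock genes (vertical axis from 0, a scale of its own for each gene) in the WT, C59A and C59S libraries; marker shape gives the replicate and the bar the mean and SD of 3. Per1 and Per3 of all C59A libraries lie below all WT libraries, Nr1d1 and Dbp of all C59A libraries lie below all C59S libraries, and C59A replicate 1 holds the highest Arntl (5.01 CPM) and the lowest Dbp (40.0 CPM).

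The activators did not pass the test in any pair of genotypes. Arntl (ENSMUSG00000055116, chr7:113207465-113314126 on GRCm38), the partner that every activator complex needs, was at 2.44, 0.854 and 2.00 CPM in WT, at 5.01, 1.08 and 2.48 CPM in C59A and at 0.894, 2.34 and 1.89 CPM in C59S. It rested on 17 to 83 counts per library, and each genotype held both a low and a high library, so the groups overlapped throughout. Its log2 fold change was 0.68 ± 0.56 (SE) in C59A against WT, with an edgeR adjusted p of 0.542, and -0.07 ± 0.57 in C59S against WT, with 0.965. Without C59A replicate 1 the value of Arntl in C59A was 0.015, and over all libraries left out in turn it ran up to 1.07. Clock (ENSMUSG00000029238, chr5:76209868-76304792), a histone acetyltransferase as well as a DNA-binding factor, was the steadiest member at 26.1, 26.0 and 22.5 CPM in WT, 32.8, 24.4 and 29.0 CPM in C59A and 21.3, 24.0 and 26.7 CPM in C59S. The highest of the 9 libraries was 1.54 times the lowest, and the groups overlapped. The difference of Clock between C59A and C59S was 0.26 ± 0.14 on the log2 scale (edgeR adjusted p = 0.298). Npas2 (ENSMUSG00000026077, chr1:39193731-39363236), which can stand in for Clock, ran from 0.337 CPM in C59S replicate 3 to 1.87 CPM in C59A replicate 1. Only 5 to 31 counts per library lay behind Npas2, and its differences between genotypes (0.47 ± 0.60 in C59A and -0.05 ± 0.61 in C59S against WT, log2) were smaller than their errors.

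Per1 and Per3 had the most negative fold changes of the 10 genes against WT with both alleles, and neither passed the test. The Period genes encode repressors, and their transcripts follow both the clock and acute signals. Per1 (ENSMUSG00000020893, chr11:69095217-69109960) was at 119, 147 and 127 CPM in WT, 80.5, 77.6 and 82.0 CPM in C59A and 112, 56.0 and 84.0 CPM in C59S. All 3 libraries of either allele lay below all WT libraries, tightly so in C59A (mean 80.1 ± 2.23 CPM) and widely spread in C59S (84.1 ± 28.2 CPM). The log2 fold change against WT was -0.71 ± 0.20 in C59A, with an edgeR adjusted p of 0.0692, and -0.64 ± 0.20 in C59S, with 0.170. Without C59S replicate 2, which held the adrenal transcripts, the value in C59S was -0.41 ± 0.16 (edgeR adjusted p = 0.270). Per3 (ENSMUSG00000028957, chr4:151003652-151044665), the Period gene with the mildest role in the core loop, was at 109, 96.6 and 76.5 CPM in WT, 45.2, 68.8 and 43.1 CPM in C59A and 76.6, 57.3 and 45.5 CPM in C59S. The C59A libraries again lay below all WT libraries, while the highest C59S library just overlapped the lowest WT library. The fold change of Per3 was -0.84 ± 0.23 (log2) in C59A against WT, with an edgeR adjusted p of 0.0580, and -0.65 ± 0.23 in C59S, with 0.195. Per2 (ENSMUSG00000055866, chr1:91415982-91459324), a core repressor, was at 177, 83.7 and 123 CPM in WT, 112, 139 and 77.8 CPM in C59A and 125, 65.8 and 73.0 CPM in C59S, with overlap between all groups. Its fold changes were -0.23 ± 0.33 in C59A and -0.54 ± 0.33 in C59S against WT on the log2 scale (edgeR adjusted p = 0.762 and 0.423). The value of Per2 in C59S was -0.23 without WT replicate 1 and -0.88 without C59S replicate 1. Between the alleles Per1, Per2 and Per3 differed by -0.07 ± 0.20, 0.31 ± 0.33 and -0.19 ± 0.23 (C59A over C59S, log2), none of which passed.

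The Cryptochromes, which carry most of the repression of the activator pair, did not separate the genotypes. Cry1 (ENSMUSG00000020038, chr10:85131700-85185064) was at 9.43, 3.01 and 7.33 CPM in WT, 5.43, 11.6 and 3.86 CPM in C59A and 8.98, 5.63 and 6.34 CPM in C59S. The lowest library was a WT and the highest a C59A library, and the 3 comparisons gave log2 values from -0.01 to 0.08 with an SE of 0.47 each. Cry2 (ENSMUSG00000068742, chr2:92403646-92434043) was at 32.5, 24.7 and 26.4 CPM in WT, 16.7, 28.1 and 17.1 CPM in C59A and 24.5, 24.7 and 16.8 CPM in C59S. C59A replicates 1 and 3 and C59S replicate 3 held the 3 lowest levels of Cry2, while C59A replicate 2 was among the highest. The fold changes of Cry2 against WT were -0.43 ± 0.22 in C59A and -0.34 ± 0.22 in C59S on the log2 scale (edgeR adjusted p = 0.295 and 0.441).

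Nr1d1 (ENSMUSG00000020889, chr11:98767932-98775333), the nuclear receptor that represses Arntl, was the member that passed a test: it was lower in C59A than in C59S kidneys. Its level was 84.2, 88.9 and 89.3 CPM in C59A, 148, 109 and 182 CPM in C59S and 96.9, 122 and 86.5 CPM in WT. All C59A libraries lay below all C59S libraries, and WT overlapped both. The log2 difference between C59A and C59S was -0.74 ± 0.18 (1.67-fold lower in C59A), with an edgeR adjusted p of 0.0389. Against WT, Nr1d1 was at -0.22 ± 0.18 in C59A and 0.52 ± 0.18 in C59S (log2), and neither passed (edgeR adjusted p = 0.542 and 0.191). The call between the alleles was lost when any 1 of WT replicate 1, C59A replicate 1, 2 or 3, or C59S replicate 1 or 3 was left out, with edgeR adjusted p-values of 0.0575, 0.138, 0.0669, 0.110, 0.0757 and 0.157 in that order. Without C59S replicate 2 the difference was -0.92 ± 0.17 and passed (0.0173), and without C59S replicate 3 it was -0.56 ± 0.18. The call was also lost with the mitochondrial share as a covariate (0.0742) and with the replicate number as a block (0.0755). C59S replicate 3, which gave the highest Nr1d1, also had the highest mitochondrial share and the highest adipocyte marker sum, and the 4 endothelial markers summed to 337 to 517 CPM in C59S against 214 to 242 CPM in C59A. Podocyte markers (343 to 564 CPM in C59S, 183 to 302 CPM in C59A) and intercalated cell markers (208 to 224 and 133 to 172 CPM) were separated in the same direction. The part of these cell types in the difference was not tested. Nr1d1 shares 263 exonic bases with Thra, the gene of a thyroid hormone receptor on the opposite strand, and the strand setting of the counting is not given in the sources used here, so reads from these bases cannot be assigned to 1 of the genes.

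Dbp (ENSMUSG00000059824, chr7:45705088-45710203), the D-box activator, known for a wide daily swing in many tissues, was at 117, 172 and 94.6 CPM in WT, 40.0, 115 and 85.6 CPM in C59A and 195, 141 and 166 CPM in C59S. As with Nr1d1, all C59A libraries lay below all C59S libraries and WT overlapped both. The difference was larger than that of Nr1d1 but more variable, at -1.06 ± 0.36 (log2, C59A over C59S), and did not pass (edgeR adjusted p = 0.120). Against WT, Dbp was at -0.67 ± 0.35 in C59A and 0.39 ± 0.35 in C59S (log2). With 1 library left out the value in C59A ran from -1.02 (without C59A replicate 2) to -0.35 (without C59A replicate 1), and that in C59S from 0.21 (without WT replicate 3) to 0.66 (without WT replicate 2). Without C59A replicate 1, the lowest of the 9 libraries, the difference between the alleles was -0.73 (log2, edgeR adjusted p = 0.184). Dbp shares 539 exonic bases with Sphk2 on the opposite strand, with the same limit as for Nr1d1 and Thra.

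**Figure D2:**
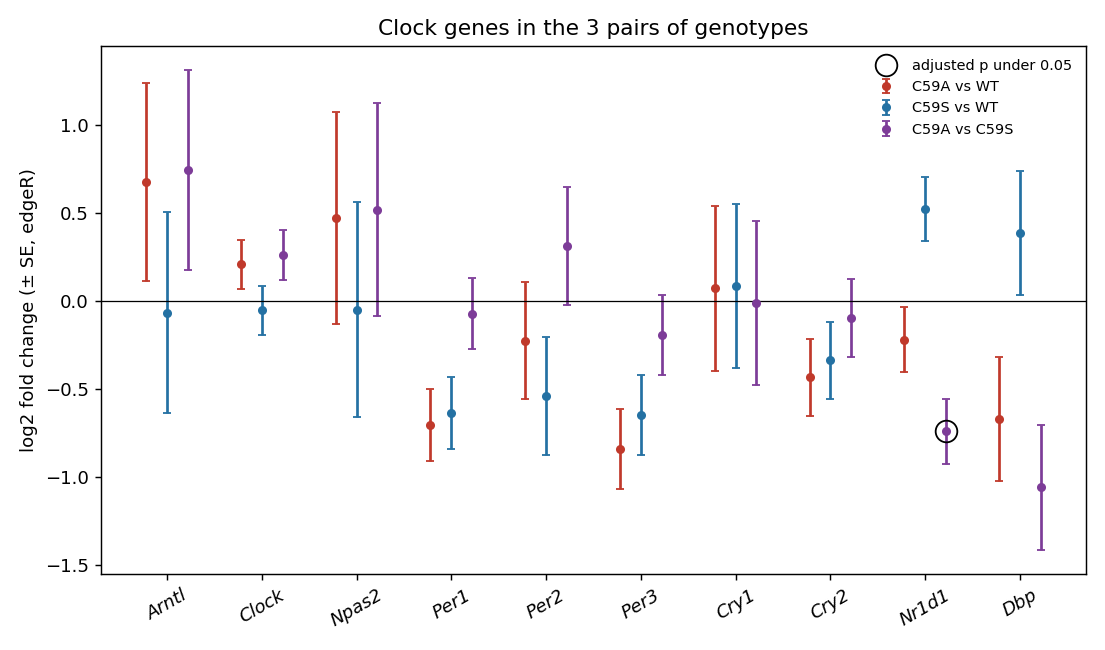
Log2 fold change (vertical axis) with its SE from edgeR for each of the 10 clock genes in C59A against WT, C59S against WT and C59A against C59S; a ring marks an adjusted p under 0.05. Per1 and Per3 are below 0 against WT for both alleles, Nr1d1 and Dbp have opposite signs for the 2 alleles, and the ring is on Nr1d1 between the alleles (-0.74).

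In C59A against WT, 0 of the 10 clock genes were called at an edgeR adjusted p under 0.05, where 5.7% of all tested genes were called. At an unadjusted p under 0.05 edgeR gave 2 of the 10 (Per1 and Per3), where 21% of all genes were past that value, and DESeq2 called Per1 and Per3 after adjustment (9.43% of all genes), while limma voom with quality weights called Per3 alone (5.99% of all genes). The C59A libraries of Per1 and Per3 lay wholly below WT, an order in this direction that 12% of all genes showed. In sum 6 of the 10 fold changes were negative, as were 52.4% of all genes, and their median was -0.22, beside a median of -0.02 over all tested genes. With edgeR, Per1 and Per3 also passed without C59S replicate 1 (5.32% of all genes called), and Per1 without C59S replicate 2 (4.8%). Per3 passed without C59S replicate 3 or without C59A replicate 2 (4.64% in both). Without any 1 of the WT libraries, C59A replicate 1 or C59A replicate 3, edgeR called 0 of the 10 (2.85% to 4.82% of all genes). The C59S libraries are not in this pair and enter it only through the shared filter, scaling and estimate of the spread.

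In C59S against WT, which uses the same WT libraries, edgeR called 0 of the 10, where 0% of all genes were called, and limma voom (0% of all genes) and DESeq2 (3.75%) also called 0 of the 10. At an unadjusted p under 0.05 edgeR gave 3 of the 10 (Per1, Per3 and Nr1d1), where 18.1% of all genes were past that value. The C59S libraries of Per1, and of no other clock gene, lay wholly below WT, an order in this direction that 11.3% of all genes showed. In sum 7 of the 10 fold changes were negative, as were 48.8% of all genes, with a median of -0.06 beside 0.01 over all genes. WT and C59S libraries of the same replicate number deviated together from their group means. A fit of these 6 libraries with the number as a block called 2 of the 10, where 3.82% of 16685 genes were called. The block was chosen from the same counts that the fit tests, so the calls carry that limit. These were Per2, at -0.55 (edgeR adjusted p = 0.0438), and Per3, at -0.68 (0.0322). Without pair 1 or pair 3 the blocked fit called 0 of the 10, where 0.552% and 0.00581% of all genes were called. Without pair 2 it called Dbp alone, at 0.75 (edgeR adjusted p = 0.0461), where 0.953% of all genes were called.

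Between C59A and C59S, 1 of the 10 (Nr1d1) was called and was lower in C59A, where 5.91% of all genes were called and 2.56% were called lower. DESeq2 and limma voom each called Nr1d1 and Dbp (10.3% of all genes in both), and these 2 genes also had an edgeR unadjusted p under 0.05 (22.9% of all genes). Nr1d1 and Dbp lay wholly below C59S in C59A, an order in this direction that 14.5% of all genes showed. In sum 6 of the 10 differences were negative, as were 51% of all genes, and the median was -0.04 beside -0.01 over all genes. A test of the 3 genotypes at once called 0 of the 10, where 6.72% of all genes were called, with the smallest edgeR adjusted p-values for Nr1d1 (0.0581), Per1 (0.0774) and Per3 (0.0781), and 4 of the 10 had an unadjusted p under 0.05, as had 4557 of all 17114 genes. DESeq2 called 4 of the 10 in that test (Per1, Per3, Nr1d1 and Dbp), where it called 15.4% of all genes, and limma voom 1 (Per3), where it called 7.51%.

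Most of the clock genes varied more between libraries of 1 genotype than the median gene did. The SD of log2 CPM within genotypes was 0.85 for Arntl, 0.76 for Npas2, 0.70 for Cry1, 0.54 for Dbp, 0.49 for Per2, 0.34 for Per3, 0.33 for Cry2, 0.31 for Per1, 0.26 for Nr1d1 and 0.17 for Clock. The median of the 10 was 0.41, beside 0.25 over all tested genes, and 9 of the 10 were above that median. Arntl, Npas2 and Cry1 (60 to 241 counts) rest on low counts, and their spread includes more counting error than that of Dbp (664 to 5231 counts) and Per2 (1083 to 4214 counts). From the lowest to the highest of the 9 libraries the level of Arntl ranged 5.86-fold, Npas2 5.55-fold, Dbp 4.87-fold, Cry1 3.85-fold, Per2 2.69-fold, Per1 2.62-fold, Per3 2.52-fold, Nr1d1 2.16-fold and Cry2 1.94-fold, where the median tested gene ranged 1.91-fold.

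At the ends of the range, libraries with much Arntl had little Dbp and the reverse. C59A replicate 1 had the highest Arntl, Clock and Npas2 of the 9 libraries and the lowest Dbp, Nr1d1 and Cry2. C59S replicate 1 had the highest Dbp and the lowest Clock, with Arntl next to the lowest, which was in WT replicate 2. The ratio of Dbp to Arntl FPKM, a single figure for this balance, was 121, 505 and 119 for the WT replicates, 20.1, 269 and 86.9 for C59A, and 548, 151 and 221 for C59S. Each genotype held libraries far apart in this ratio, and the 3 groups overlapped. WT replicate 2, C59S replicate 1 and C59A replicate 2 had the 3 lowest levels of Arntl, 1 in each genotype. Of these, C59A replicate 2 ranked only 6 of 9 from the top in Dbp. In WT replicate 1 and C59S replicates 2 and 3, both Arntl and Dbp were above their means over the 9 libraries (log2 CPM). Arntl rests on 17 to 83 counts per library, which limits the ratio.

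**Figure D3:**
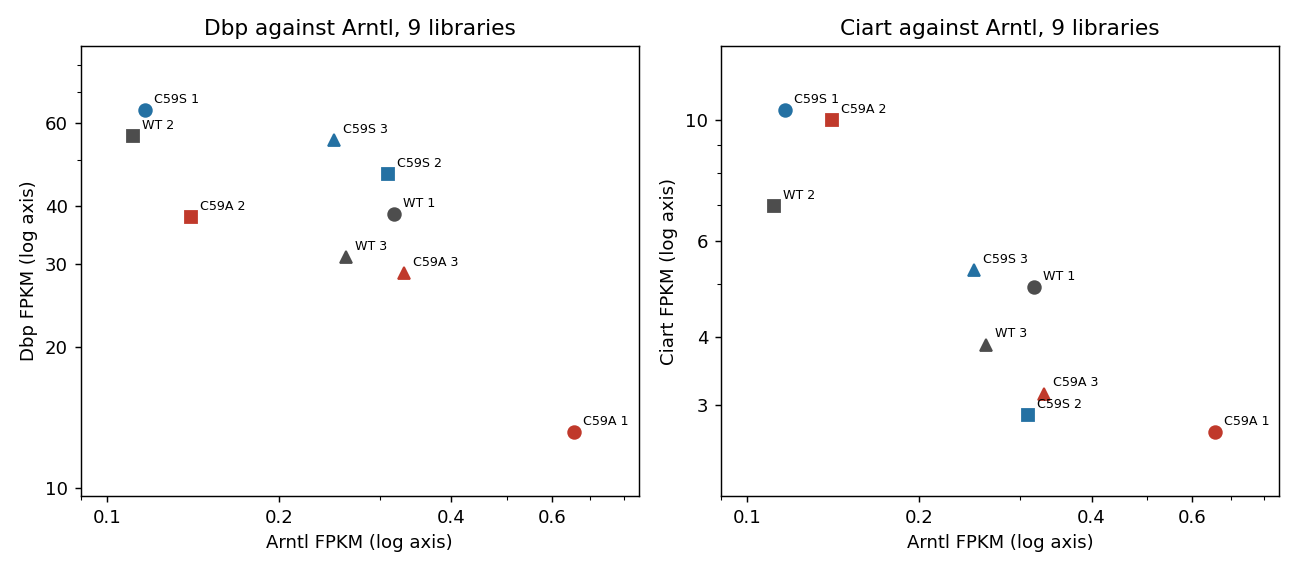
FPKM of Dbp (left) and of Ciart (right) against FPKM of Arntl in the 9 libraries, both axes logarithmic; colour gives the genotype and marker shape the replicate. C59A replicate 1 lies at the lower right (Arntl 0.656, Dbp 13.2 FPKM), and WT replicate 2, C59S replicate 1 and C59A replicate 2 lie at the left with the lowest Arntl and the 3 highest values of Ciart.

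The genes most like Arntl and Dbp in their course over the 9 libraries were taken among 13417 protein-coding genes by the root mean square difference of centred log2 CPM. For Arntl, whose own deviation was 0.738, the 5 nearest genes were Foxs1 (0.458), Clec10a (0.463), Anxa13 (0.468), Spef1 (0.481) and Ypel2 (0.490). The 5 nearest to the mirror image of Arntl were Zfp286 (0.355), Ciart (0.358), Ttc39a (0.387), Tube1 (0.392) and Agmat (0.409), of which Ciart (CHRONO) is known as a repressor of the Arntl and Clock pair. For Dbp, whose own deviation was 0.654, the nearest were Mt3 (0.223), Catsperd (0.223), Nxpe3 (0.262), Plppr4 (0.274) and Nkd2 (0.279), and the nearest mirror images were Pdk4 (0.316), Galnt14 (0.328), Pex11a (0.344), Asxl3 (0.347) and Adamts15 (0.355). Among the clock genes the one nearest to Dbp was Nr1d1 (0.456) and the one nearest to Arntl was Clock (0.629), while Arntl and Dbp stood 1.33 apart. A gene that did not vary would stand 0.738 from Arntl by this measure. Clock ranged over only 0.62 (log2), so its place says little about a shared course with Arntl. These figures describe 9 libraries that share depth and composition, and carry no test.

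Of 12 other genes of the core loops, 1 passed in C59A against WT, where 5.7% of all genes were called, and none in the other pairs. Bhlhe40 (DEC1), which competes with the activators at E-boxes, was at 93.7, 100 and 61.0 CPM in WT, 49.5, 50.0 and 46.7 CPM in C59A and 50.9, 61.1 and 52.4 CPM in C59S. It fell by 0.80 ± 0.17 on the log2 scale in C59A (edgeR adjusted p = 0.0174), a call that needed each of 4 libraries (replicates 1 and 2 of WT, replicates 1 and 3 of C59A), since it was lost when any of them was left out. It was also lost with the mitochondrial covariate, the block in the 2 groups compared and unfiltered FPKM (adjusted p = 0.0736, 0.0658 and 0.115). Its value in C59S against WT was -0.63 ± 0.17 (edgeR adjusted p = 0.139), and the C59S and WT libraries overlapped. Nfil3 (E4BP4), which opposes Dbp at D-boxes, was at 12.5, 4.87 and 5.09 CPM in WT, 3.56, 2.94 and 3.19 CPM in C59A and 5.59, 4.82 and 4.65 CPM in C59S. C59A lay below the others, at -1.22 ± 0.34 against WT (log2, edgeR adjusted p = 0.0590), with WT replicate 1 far above the rest. Ciart ran from 6.15 to 24.0 CPM and had a high and a low library in C59A and in C59S. Bhlhe41 (DEC2) was at 17.5, 7.07 and 13.3 CPM in C59S and at 5.49 to 9.51 CPM in the other libraries. Its difference between C59A and C59S was -0.87 ± 0.31 (log2, edgeR adjusted p = 0.129). Nr1d2 (REV-ERB beta), the paralog of Nr1d1, did not show the separation of Nr1d1: it was at 79.7 to 115 CPM in C59A and 85.8 to 123 CPM in C59S, and differed by -0.13 ± 0.17 (log2, edgeR adjusted p = 0.698). The D-box activators Tef and Hlf, relatives of Dbp, differed between C59A and C59S by 0.00 ± 0.20 and 0.04 ± 0.15 (log2). Whether Nr1d1 and Nr1d2, or Dbp and its relatives, differ in their response was not tested.

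**Figure D4:**
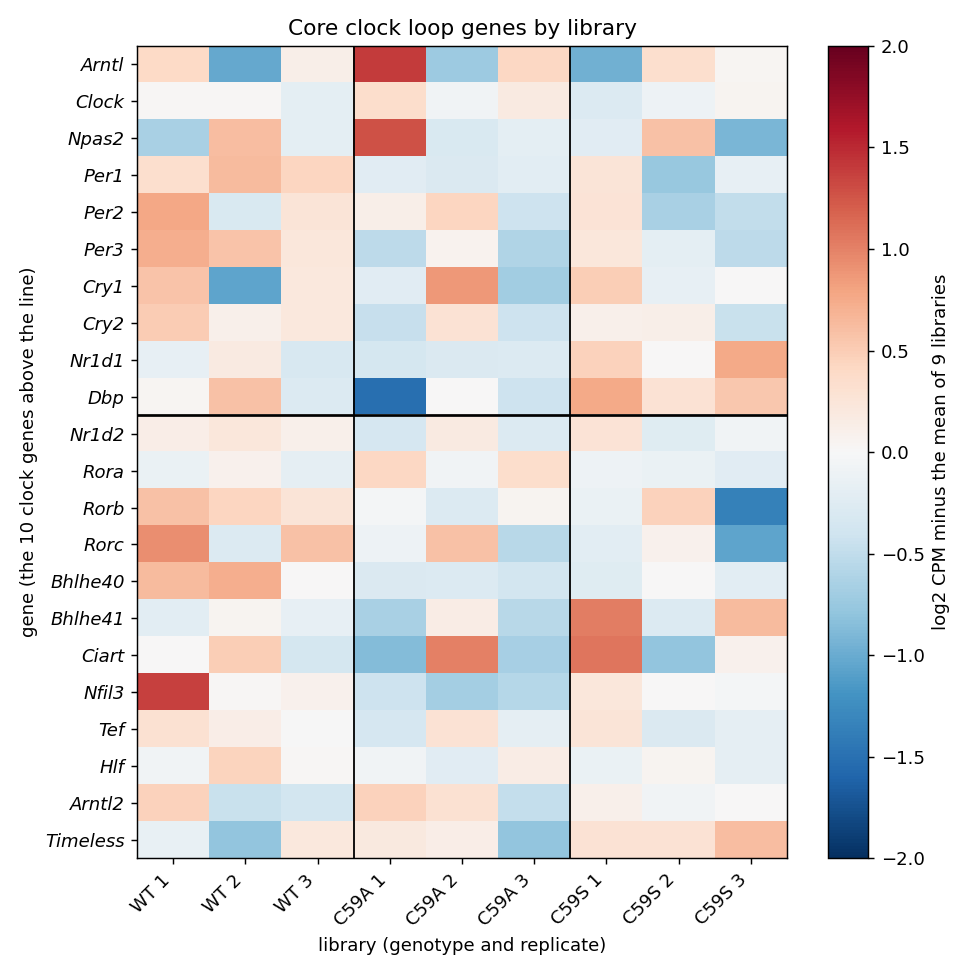
Log2 CPM minus its mean over the 9 libraries (colour, from -2 to 2) for the 10 clock genes, above the line, and 12 other genes of the core loops, below it, in each library. The rows of Arntl and Dbp have opposite colours in C59A replicate 1, WT replicate 2 and C59S replicate 1, and the columns of a genotype differ among themselves.

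Of 14 genes of clock protein turnover and cofactors, Fbxw11 passed in C59A against WT, and Fbxw11 and Ncor1 passed in C59A against C59S, where 5.7% and 5.91% of all genes were called. Fbxw11, a subunit of the ubiquitin ligase that marks Period proteins for breakdown, was at 50.0, 45.2 and 59.5 CPM in C59A, 29.1, 36.4 and 27.2 CPM in WT and 34.7, 27.5 and 35.3 CPM in C59S. It rose by 0.74 ± 0.15 against WT and was 0.67 ± 0.15 higher than in C59S (log2, edgeR adjusted p = 0.0171 and 0.0297). Ncor1, the corepressor that Nr1d1 recruits, was at 120, 113 and 115 CPM in C59A and 89.4, 88.5 and 78.7 CPM in C59S, and was 0.44 ± 0.11 higher in C59A (log2, edgeR adjusted p = 0.0379). The call of Ncor1 was lost in 6 of the 9 fits that left out 1 library, that of Fbxw11 against WT in 3 and against C59S in 4. Among the 16 other alternatives the call of Ncor1 was lost in 5, and those of Fbxw11 in 4 against WT and in 6 against C59S.

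Of 12 kidney transport genes whose levels are tied to the clock, 3 fell and 1 rose in C59A against WT, where 5.7% of all genes were called. Like all gene lists here, this list was chosen with earlier results of these data known. Its count beside that share is therefore no result about the list. Sgk1, a kinase that raises sodium uptake, was at 142, 141 and 193 CPM in WT, 85.9, 62.4 and 73.9 CPM in C59A and 97.9, 94.0 and 108 CPM in C59S, and fell by 1.10 ± 0.16 on the log2 scale in C59A (edgeR adjusted p = 0.00267). Slc12a3, the sodium chloride cotransporter of the distal convoluted tubule, fell by 1.22 ± 0.24 (0.0130), and Wnk1, a kinase that controls it, by 0.71 ± 0.15 (0.0174). In C59S these 3 genes also lay wholly below WT, an order in this direction that 11.3% of all genes showed. Sgk1, Slc12a3 and Wnk1 were there at -0.66 ± 0.16, -0.86 ± 0.24 and -0.43 ± 0.15 (log2). None was called (edgeR adjusted p = 0.130, 0.145 and 0.188), and none was called between C59A and C59S (0.133, 0.398 and 0.285). Slc6a9, a glycine transporter, was 0.85 ± 0.21 higher in C59A than in WT (0.0399) and 1.14 ± 0.22 higher than in C59S (0.0124), with libraries at 7.60, 12.2 and 7.90 CPM in C59A, 4.71, 5.33 and 5.33 CPM in WT and 4.21, 4.10 and 4.25 CPM in C59S. The call of Sgk1 held in all 9 fits without 1 library, that of Slc12a3 was lost without C59A replicate 1, that of Wnk1 without C59A replicate 1 or 3, that of Slc6a9 against WT in 8 of the 9 fits, and that of Slc6a9 against C59S without C59S replicate 2 or 3 (0.0514 and 0.0533). Slc12a3 and Wnk1 were not called with the mitochondrial covariate (0.0622 and 0.0885) or the block in the 2 groups compared (0.111 and 0.0912), and Slc6a9 against WT was not called in 9 of 16 other alternatives, limma voom (0.0649) among them. Against C59S, Slc6a9 was not called with the block in the 2 groups compared (edgeR adjusted p = 0.0726). Unfiltered FPKM lost the calls of Slc6a9 against C59S and of Slc12a3 against WT (limma adjusted p = 0.0769 and 0.0625). The 3 distal convoluted tubule markers, of which Slc12a3 is one, summed to 2106 to 3386 CPM in WT, 841 to 1355 CPM in C59A and 1350 to 1509 CPM in C59S. The other markers in this sum did not all follow Slc12a3. In C59A against WT, Pvalb was at -1.37 and Trpm6 at -0.36 (log2, edgeR adjusted p = 0.0279 and 0.381). In C59S against WT, Pvalb was at 0.003 and Trpm6 at -0.36, and the libraries of both overlapped WT. The part of that cell type in the values of the transport genes was not tested. The transport genes had a median fold change of -0.23 in C59A and -0.28 in C59S against WT (log2), beside -0.02 and 0.01 over all tested genes.

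Of 9 genes induced by glucocorticoids, hormones that set peripheral clocks and act on Per1, 1 rose and 1 fell in C59A against WT, where 5.7% of all genes were called. Fkbp5, a chaperone cofactor of the glucocorticoid receptor, was at 112, 147 and 131 CPM in C59A, 39.8, 22.8 and 37.2 CPM in WT and 59.9, 25.1 and 41.2 CPM in C59S. It rose by 1.96 ± 0.31 against WT (log2, edgeR adjusted p = 0.00701) and was 1.63 ± 0.31 higher than in C59S (0.0178), the latter call being lost without C59A replicate 3 or C59S replicate 3. The call against C59S was also lost with no filter (edgeR adjusted p = 0.0695) and the block in the 2 groups compared (0.0663). Unfiltered FPKM lost it as well (limma adjusted p = 0.0514). Sgk1, which is also on this list, fell, and Per1 itself gave the values above.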

How the data were processed

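RNA sequencing covered 9 kidney libraries, in 3 groups by labelled genotype. The 10 genes and all gene lists were chosen with earlier results of these data known. Per the submitters' processing notes, libraries were made from TRIzol RNA with the NEBNext Ultra RNA kit, the build was GRCm38, and the tools were featureCounts 1.5.0-p3, HISAT2 2.0.5, fastp, CASAVA 1.8 and DESeq2 1.20.0; parameters, strand setting and annotation release are not given in the sources used here. The counts per gene are whole numbers as deposited by the authors. The FPKM values, also deposited by the authors, equal counts over gene length and 1 constant per library (0.802 to 1.15 times its total).

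Counts were filtered with filterByExpr (17114 genes), scaled with TMM factors (0.798 to 1.12) and fitted in 1 model of all 9 libraries with edgeR 4.0.16 in R 4.3.3 (robust quasi-likelihood test, Benjamini-Hochberg adjustment over all tested genes, call at adjusted p under 0.05). The SE of a log2 fold change is its size over the root of F. The scripts were tested on simulated data. No pair of libraries was a duplicate (chi-square per degree of freedom at least 23.7). The replicate numbers of WT and C59S were taken to pair the libraries, since deviations of same-numbered libraries correlated at 0.318, 0.195 and 0.256. Those of C59A with WT (0.0149, -0.0944 and 0.0491) and with C59S (-0.0853, -0.288 and 0.0499) did not. The pairing comes from the data that the paired fit then tests, not from a stated litter or batch. Some libraries of different numbers also correlated, C59A replicate 2 with C59S replicate 1 at 0.294 and C59A replicate 3 with C59S replicate 2 at 0.248. The sample names carry other numbers (1, 3 and 4 in WT, 2, 4 and 5 in C59S), and the libraries that share the number 4 there correlated at 0.00850, so the paired calls of Per2 and Per3 rest on the title numbers.

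Named genes were the 10 clock genes, up to 4 called genes per list and comparison, Nr1d2, Bhlhe41, Tef, Hlf, Nfil3 and Ciart, and the 5 genes nearest to Arntl and Dbp and to their mirror images with a mean of at least 1 CPM (prior count 2). Alternatives changed the scaling, the filter (none, or 1 CPM in 3 libraries), the test (DESeq2 1.42.0, limma 3.58.1 with voom and sample quality weights together, no robust fit), the libraries, the replicate block, the mitochondrial genes or share, or the unit (limma on log2 FPKM with a pseudocount of 1, unfiltered or for genes averaging 0.5 FPKM or more, and with a pseudocount of 0.1), or left out each library. Leaving out pairs in the paired fit was chosen after seeing the data.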

Additional observations from a re-analysis of the deposited data

How the results depend on the processing

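Of 30 fold changes (10 genes in 3 pairs of genotypes), 17 kept their sign in every alternative run. Of the 10 clock genes, none was called in C59A against WT in the fit reported above, but library totals alone (6.3% of all genes called), no filter (3.77%), DESeq2 (9.43%) and a fit of the 2 groups alone (4.6%) each called 2, and limma voom with quality weights (5.99%) called 1. Between C59A and C59S, DESeq2 and limma voom called 2 (10.3% of all genes each). The mitochondrial covariate (3.02% of all genes) and the 3 FPKM fits (4.3%, 4.39% and 0.888%) called 0 there. Over 3 genotypes, library totals called 3 (6.8% of all genes), no filter 2 (6.01%), DESeq2 4 (15.4%) and limma voom 1 (7.51%). The cause was not tested. With 1 library left out, the number called was 0 to 2 in C59A against WT, 0 in C59S against WT (0 to 1 with 1 pair left out of the paired fit), 0 to 1 between C59A and C59S and 0 to 2 over 3 genotypes. Without 1 library, 2.85% to 5.32% of all genes were called in C59A against WT and 0% to 4.17% in C59S against WT. The shares were 1.8% to 7.4% between C59A and C59S and 2.42% to 10.6% over 3 genotypes. With 1 pair left out they were 0.00581% to 0.953%. Library totals moved the median of all genes by -0.24 in C59A and -0.20 in C59S against WT.

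With the replicate block, the fit of all 9 libraries called 1 gene (Per3) in C59A against WT (5.87% of all genes) and over 3 genotypes (6.68%). It called 0 between C59A and C59S (5.66%). The block in the 2 groups compared called 2 in C59S against WT (3.82% of all genes) and 0 between C59A and C59S (2.03%). It changed no other count.

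The following values turned sign. With library totals Clock was at -0.021 and Cry1 at -0.17 in C59A, and Cry1 at -0.11 in C59S against WT. With limma voom Arntl was at 0.047 in C59S against WT and Per1 at 0.037 between C59A and C59S. With the replicate block in 9 libraries Arntl was at 0.13 in C59S against WT and Cry1 at 0.011 between C59A and C59S. With the mitochondrial covariate Cry1 was at -0.075 in C59A against WT, -0.11 in C59S against WT and 0.032 between the alleles, and Arntl was at 0.27 and Npas2 at 0.80 in C59S against WT. With 1 library left out, the range in C59A against WT was -0.46 to 0.081 for Per2, -0.51 to 0.42 for Cry1 and -0.28 to 0.95 for Npas2. In C59S against WT it was -0.39 to 0.26 for Arntl, -0.13 to 0.029 for Clock, -0.58 to 0.43 for Npas2 and -0.26 to 0.43 for Cry1. With 1 pair left out of the blocked fit these were -0.78 to 0.66, -0.21 to 0.064, -0.35 to 0.20 and -0.15 to 0.36. Between C59A and C59S the range with 1 library left out was -0.23 to 1.05 for Npas2, -0.30 to 0.19 for Per1, -0.44 to 0.026 for Per3, -0.60 to 0.28 for Cry1 and -0.39 to 0.040 for Cry2. Depth limits Arntl (17 to 83 counts) and Npas2 (5 to 31 counts) most.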

Other observations

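The 8 clock outputs shared by tissues, such as Wee1 and Usp2, held no gene that edgeR called in any pair of genotypes, and 2, 3 and 2 of them had an unadjusted p under 0.05 in C59A against WT, C59S against WT and C59A against C59S, where 21%, 18.1% and 22.9% of all genes were past that value. None of 8 temperature-responsive genes, which include the cold-induced Cirbp and Rbm3 and the heat shock genes Hspa1a and Hspa1b, was called by edgeR, with 3, 2 and 3 of them past an unadjusted p of 0.05 in the same order and beside the same shares of all genes. The temperature-responsive genes had a median log2 fold change of 0.40 in C59A and -0.01 in C59S against WT, beside -0.02 and 0.01 over all tested genes. Hspa1b, a heat shock chaperone, was at 21.8, 12.8 and 16.5 CPM in WT, 59.3, 55.4 and 18.2 CPM in C59A and 51.8, 20.1 and 48.7 CPM in C59S, a wide range with overlap between the knock-in groups and WT. Rbm3, an RNA-binding protein, was at 45.1 to 50.5 CPM in C59S and at 50.6 to 74.7 CPM in WT.

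None of 9 immediate early genes, which answer to handling and to other acute signals, was called by edgeR, with 0, 1 and 1 of them past an unadjusted p of 0.05 in the same order, again beside 21%, 18.1% and 22.9% of all genes. Fos and Egr1 were at 29.4 and 51.3 CPM in WT replicate 2, while Fos was at 1.86 to 9.23 CPM and Egr1 at 6.73 to 23.3 CPM in the other 8 libraries. WT replicate 2 was also the library with the lowest Arntl and Cry1 and the highest Per1 of the 9. These 3 lists and their named genes were described after their values were seen.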
